A study of Mus musculus with 30 samples.

Results

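The 37 genes of the mouse mitochondrial genome were followed through heart development. They were chosen by symbol, as all genes whose GENCODE M21 symbol begins with mt-, and made up 37 of the 48820 genes in the deposited table. They comprised 13 protein-coding genes, 2 ribosomal RNAs (rRNAs) and 22 transfer RNAs (tRNAs). The RNA of each protein-coding gene is called an mRNA here and counted on its own, also where genes overlap. Of these, 15 genes had counts, namely all 13 mRNAs and both rRNAs, and all 15 passed the filter on low counts. The 22 tRNAs had a count of 0 in all 30 libraries.

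Hearts of wild-type (WT), untreated mice were sampled at embryonic days 10.5, 12.5, 14.5, 16.5 and 18.5 (E10.5 to E18.5), on postnatal day 1 (P1) and in postnatal weeks 1, 2, 4 and 8 (1W, 2W, 4W and 8W). There were 3 libraries per age, made from RNA that was bound to oligo-T beads, and the labels give no strain, sex or pooling. It is not stated whether replicate libraries stem from different animals, so p-values measure the spread between these samples, which may be technical. The comparisons asked how the mitochondrial transcripts changed over gestation (E18.5 against E10.5), around birth (P1 against E18.5), during postnatal maturation (8W against P1) and in each step between neighbouring ages.

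The mitochondrial genome is a small circular DNA that is transcribed from both strands into long precursors. The precursors are cut at the tRNAs that lie between most of the genes, and most of the mRNAs receive short poly(A) tails. All 13 proteins are subunits of oxidative phosphorylation: 7 belong to complex I, which takes electrons from NADH, 1 to complex III, 3 to complex IV (cytochrome c oxidase) and 2 to complex V, the ATP synthase. The other subunits, and all of the machinery that copies, transcribes and processes the mitochondrial genome, are encoded in the nucleus. The adult heart is rich in mitochondria and draws most of its ATP from them.

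Several features of these genes bear on how their RNA is captured and counted, and the sequences that show them are given first (GENCODE M21 transcripts, GRCm38, 5′ to 3′). The first 2 genes each overlap the next gene on the same strand. Capitals mark the 43 bases that mt-Atp8 shares with mt-Atp6 and the 7 bases that mt-Nd4l shares with mt-Nd4.
mt-Atp8, chrM:7766-7969, plus strand: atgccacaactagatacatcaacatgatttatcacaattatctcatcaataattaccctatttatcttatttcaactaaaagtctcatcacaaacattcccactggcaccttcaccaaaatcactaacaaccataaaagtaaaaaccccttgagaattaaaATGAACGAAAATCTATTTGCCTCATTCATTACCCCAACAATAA
mt-Nd4l, chrM:9877-10173, plus strand: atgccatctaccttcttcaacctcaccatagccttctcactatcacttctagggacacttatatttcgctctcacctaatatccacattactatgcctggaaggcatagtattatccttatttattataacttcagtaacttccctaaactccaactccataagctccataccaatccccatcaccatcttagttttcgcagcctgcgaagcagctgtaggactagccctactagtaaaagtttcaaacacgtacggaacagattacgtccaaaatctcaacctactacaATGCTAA
In both cases the reading frame of the second gene opens before that of the first has closed.

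Of the 13 mRNAs, 10 were whole numbers of codons long and ended in TAA or TAG. The other 3 ended in a single T after the last whole codon, shown in capitals in the last 31 bases of each. In these genes the stop codon is completed by the poly(A) tail, the feature that oligo-T beads bind.
mt-Co3, chrM:9360-9390: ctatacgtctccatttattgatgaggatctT
mt-Nd4, chrM:11514-11544: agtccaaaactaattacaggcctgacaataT
mt-Cytb, chrM:15258-15288: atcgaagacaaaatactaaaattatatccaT
Of the mRNAs, mt-Nd6 (chrM:13552-14070) was the only one on the minus strand, and it overlaps the end of mt-Nd5 by 14 bases. How strand was used in the counting is not stated, so reads of mt-Nd6 and of RNA antisense to it cannot be told apart.

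Copies of mitochondrial DNA also lie in the nuclear genome. A search of the GENCODE M21 transcripts found 11 nuclear genes that match an mt- gene over at least 200 bases at 95% identity or more, all of them annotated pseudogenes. Of these, 7 were at least 99% identical, and all 7 lie side by side on the minus strand of chromosome 1, between positions 24611535 and 24616197. They match mt-Co1, mt-Co2, mt-Atp6, mt-Co3, mt-Nd3, mt-Nd4l and mt-Nd4. The match covers 31.26% of the length of mt-Co1, 63.57% of that of mt-Nd4 and at least 98.99% of each of the others. Gm28661 (mt-Co2), Gm10925 (mt-Atp6), Gm28437 (mt-Co3), Gm10222 (mt-Nd4l) and Gm28439 (mt-Nd4) were identical over their aligned length, and the other 2 differed at a single base each. Counted from the 5′ end of the mt- gene, these were A1066T in mt-Co1 against Gm29216 and T3C, the last base of the start codon, in mt-Nd3 against Gm28438. The differing base is in capitals.
mt-Co1, chrM:6390-6408: ggaAttgttttatccaact
Gm29216, chr1:24616170-24616188, minus strand: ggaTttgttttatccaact
mt-Nd3, chrM:9459-9476: atTaacctgtacactgtt
Gm28438, chr1:24613102-24613119, minus strand: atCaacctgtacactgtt
Outside these positions the aligned stretches cannot be told apart by their letters. The 7 mRNAs with such a copy were also the 7 whose deposited values were not whole numbers. For them the level of the gene itself depends on how the authors' counting divided reads, and values with the nuclear gene added are given beside the results.

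Library totals ranged from 23164941 to 50519457 counts. Levels are counts scaled to a common library size (CPM) with TMM factors (trimmed mean of M values, 0.603 to 1.34), as mean ± SD with n = 3. Changes are log2(later/earlier) ± SE, and "rose" and "fell" mean an adjusted p under 0.05 in edgeR's quasi-likelihood test, over all 19280 genes tested. With library size as the only scaling, the median log2 change of all genes was -0.16 over gestation, -0.12 at birth and -0.88 from P1 to 8W, in place of 0.00, -0.01 and -0.10 with TMM. The changes below are thus relative to most other genes. Heart muscle markers were present in every library (Myh6, the atrial and adult ventricular myosin heavy chain, at 1695 CPM or more). Markers of other tissues reached a summed 42.5 CPM for lung (1 library of 4W), 44.8 CPM for liver (1 library of P1) and 856.1 CPM for skeletal muscle (1 library of 2W), and their part in the results was not tested. E10.5 replicate 2 stood apart, with 27907 CPM of Rn7sk, a small nuclear RNA without a poly(A) tail, where replicates 1 and 3 had 4573 and 4314. All 3 P1 libraries had Y-chromosome transcripts (4 genes, at least 10 CPM in sum) with Xist under 50 CPM, and all 3 of 4W and of 8W had the reverse, so sex and age cannot be told apart in 8W against P1. All 3 E10.5 libraries, and 2 of the 3 at E12.5 and at E14.5, held both by these limits, and the labels do not say whether they are pools of embryos. At E16.5, E18.5, 1W and 2W some libraries had Y transcripts with Xist under the limit and others the reverse. At these ages the 3 libraries thus do not all stem from a single animal.

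Mitochondrially encoded RNA took up a small part of the counts before birth and a large part in the adult. Its share of all counts was 5.05% ± 1.26 at E10.5, 3.10% ± 0.448 at E12.5 and 3.02% ± 0.145 at E14.5, and stood at 4.00% ± 0.439 at E18.5. At P1 it was 6.09% ± 0.826. It then stood at 8.12% ± 0.341 in 1W, 15.2% ± 1.57 in 2W, 16.96% ± 0.313 in 4W and 19.0% ± 0.172 in 8W hearts. The 3 libraries held 4.56%, 6.49% and 4.11% at E10.5, 6.04%, 5.29% and 6.93% at P1, and 18.9%, 18.9% and 19.2% at 8W. No library of 8W overlapped with any of P1, and E10.5 replicate 2 was the highest before birth. These shares are a description with no test.

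**Figure D1:**
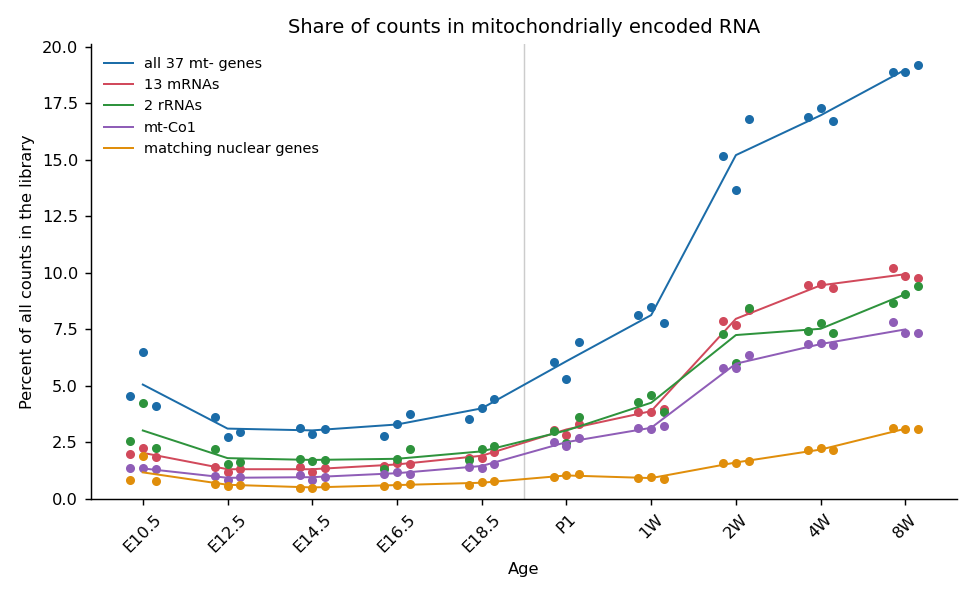
Percent of all counts in each library (y axis) by age (x axis), for all 37 mt- genes, the 13 mRNAs, the 2 rRNAs, mt-Co1 alone and the matching nuclear genes. Points are libraries, lines join the means of 3, and the grey line marks birth; the total runs from 3.02% at E14.5 to 19.0% at 8W.

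The 13 mRNAs and the 2 rRNAs each held part of this difference. The mRNAs were 1.31% ± 0.113 of all counts in E14.5, 3.07% ± 0.251 in P1 and 9.93% ± 0.233 in 8W hearts. The rRNAs were 1.72% ± 0.0317, 3.02% ± 0.575 and 9.05% ± 0.371 at the same ages. A single mRNA, mt-Co1, held 7.49% ± 0.268 of all counts at 8W as deposited, and the 12 other mRNAs together held 2.44% ± 0.0620. This split depends on how reads were divided with the nuclear copies, which held 3.10% ± 0.0427 at 8W. In the 8W libraries mt-Co1 kept 94.0%, 93.9% and 93.5% of the counts summed with its copies. mt-Co3 kept 10.5%, 7.97% and 10.6%, and mt-Co2 2.96%, 3.22% and 4.29%. The near-identical copy of mt-Co1 aligns to 31.3% of its length, and those of mt-Co3 and mt-Co2 to 99.87% and 99.56%. These divisions are thus not alike. With the matching nuclear genes added, the share of the whole group was 3.53% ± 0.173 at E14.5 and 22.1% ± 0.15 at 8W.

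All 15 genes with counts changed across the 10 ages, beside 93.6% of all genes tested. Per kilobase of transcript, mt-Rnr2 (the RNA of the large mitochondrial ribosomal subunit) led at 8W with 82716 CPM per kb, followed by mt-Co1 (catalytic subunit of complex IV) with 78929. The mean level of mt-Rnr2 was 130857 ± 7370 CPM over 1582 bases and that of mt-Co1 121946 ± 1598 CPM over 1545 bases. mt-Rnr1 (small ribosomal subunit) was next with 17398 CPM per kb, then mt-Cytb (cytochrome b of complex III) with 9156, mt-Nd1 with 7039 and mt-Nd4 with 5891. The lowest were mt-Nd6 with 563.8, mt-Co2 with 531.7, mt-Atp8 with 485.7 and mt-Nd4l with 129.3 CPM per kb. Per kilobase the 8W libraries of mt-Rnr2 (77642 to 86799) overlapped with those of mt-Co1 (78082 to 80082), and those of mt-Co2 with those of mt-Nd6 and mt-Atp8. The order also depends on the nuclear copies. With their counts added, mt-Co1 came to 84115 CPM per kb, above mt-Rnr2 but still overlapping with it, mt-Co3 to 38387, above mt-Rnr1, and mt-Co2 to 15243, while mt-Nd4l stayed lowest with 313.9.

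**Figure D2:**
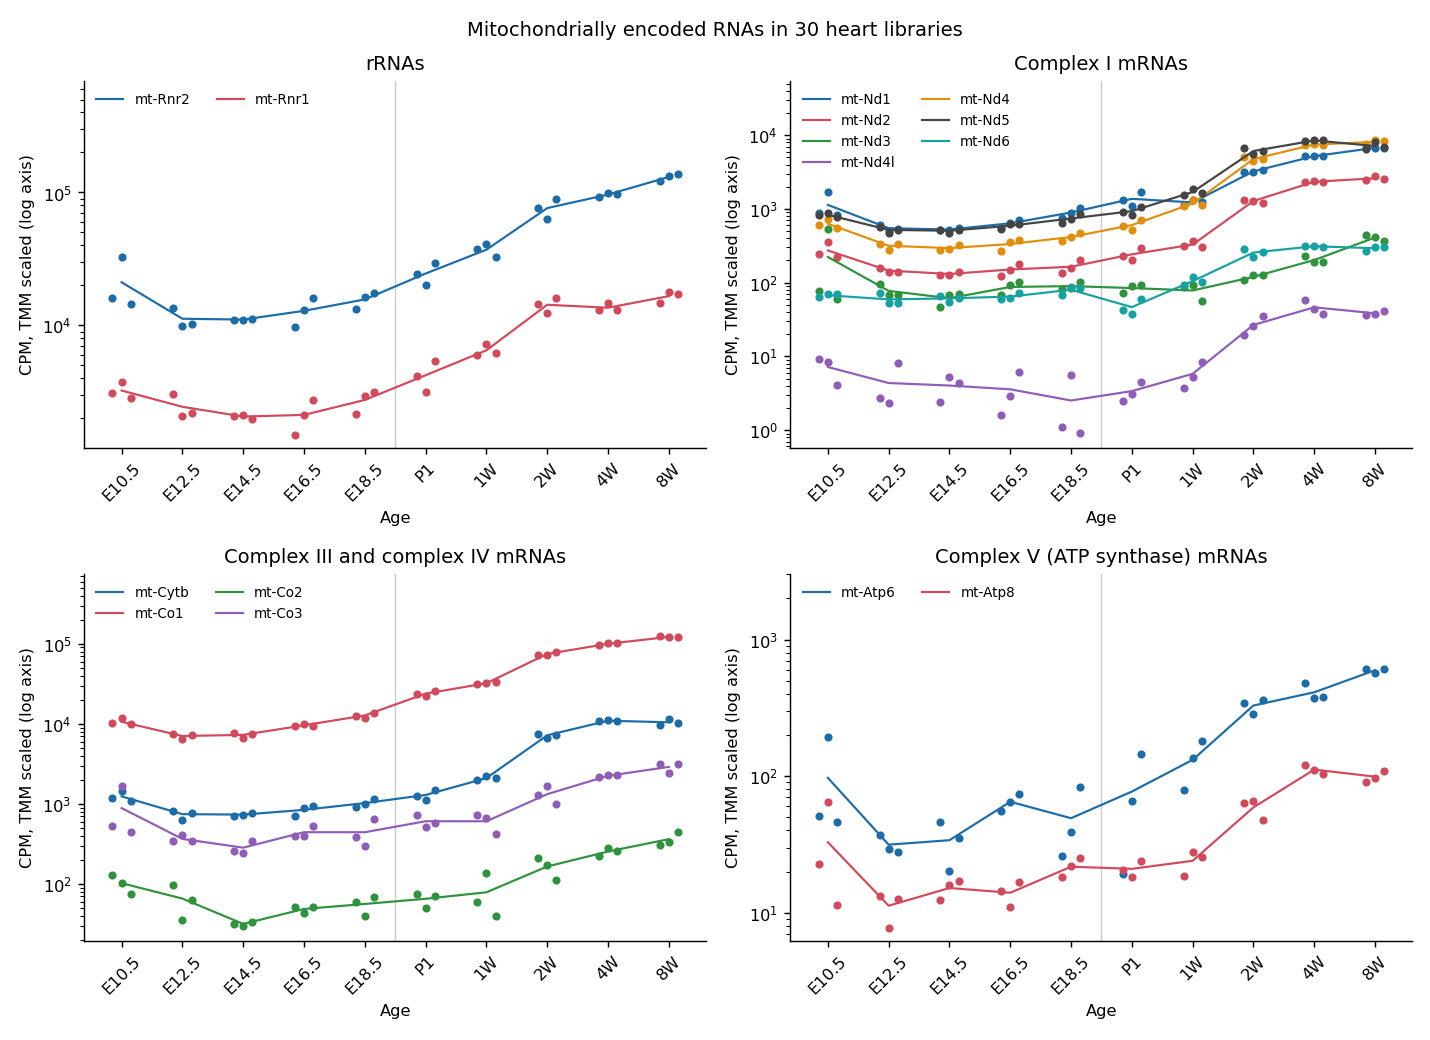
TMM-scaled CPM (y axis, log scale) of the 15 mitochondrially encoded RNAs with counts, by age (x axis), in 4 panels by role. Points are single libraries, lines join the means of 3 libraries and the grey line marks birth; all 15 are higher at 8W than at P1.

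Over gestation the mitochondrial transcripts did not move together. Between E10.5 and E18.5, mt-Co1 was the only 1 of the 15 that rose, and 6 fell, beside 32.9% of all genes that rose and 30.4% that fell. The genes that fell were mt-Nd2, mt-Nd3, mt-Nd4l and mt-Nd4 of complex I, mt-Co3 of complex IV and mt-Cytb. The median log2 change of the 15 was -0.59, against 0.00 over all genes tested. Over the same interval cardiomyocyte markers went from a summed 21384 to 40048 CPM over the libraries to 80650 to 88855 CPM, and fibroblast markers from 707.6 to 798.6 CPM to 6251 to 6621 CPM (all 10 and all 7 detected). The part of these markers in the result was not tested, and such sums mostly reflect the most abundant genes. Only 1 gene had all E18.5 libraries above all E10.5 libraries and 3 had all of them below, beside 33.5% and 31.5% of all genes.

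The rise of mt-Co1 was small and the fall of mt-Nd4 larger. mt-Co1 stood at 10294, 11726 and 9866 CPM in the E10.5 libraries and at 12701, 11928 and 13645 in those of E18.5, a log2 change of 0.26 ± 0.09 (edgeR adjusted p = 0.011). The groups did not overlap, but with library size alone the change was 0.11 ± 0.09 and no longer passed (adjusted p = 0.30). mt-Nd4, a subunit of the proton-pumping membrane arm of complex I, stood at 606.9, 729.2 and 552.9 CPM at E10.5 and 367.4, 415.3 and 466.1 at E18.5. Every E18.5 library was below every E10.5 library, and the change was -0.60 ± 0.12 (edgeR adjusted p = 8.6e-05). mt-Nd2, another subunit of that arm, changed by -0.73 ± 0.16 (edgeR adjusted p = 0.00025), from 242.5, 357.8 and 219.7 CPM to 135.7, 155.8 and 201.6.

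Calls of the other 4 genes were lost without E10.5 replicate 2. mt-Nd3 stood at 76.57, 532.4 and 59.56 CPM at E10.5 and at 80.75, 85.25 and 103.2 at E18.5, so that the E10.5 mean rested on 1 library. Its change was -1.31 ± 0.50 (edgeR adjusted p = 0.028) with that library and 0.40 (edgeR adjusted p = 0.12) without it. mt-Co3, a core subunit of complex IV, went from -1.0 ± 0.37 to -0.14 (edgeR adjusted p = 0.69) without it, and mt-Cytb from -0.28 ± 0.12 to -0.14 (edgeR adjusted p = 0.31). The change of mt-Nd4l was nearly as large without the library (-1.28, edgeR adjusted p = 0.11) as with it (-1.42), and its call alone was lost. Without this library 2 genes fell in place of 6, namely mt-Nd2 (-0.49, edgeR adjusted p = 0.0080) and mt-Nd4 (-0.48, edgeR adjusted p = 0.0020), and mt-Co1 rose by 0.34. The count of falls was also 2 without E18.5 replicate 1, 3 without E18.5 replicate 2 and 10 without E10.5 replicate 3. The library's high values in RNAs without a poly(A) tail moved with these results, and their part was not tested.

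The earliest step held all of the falls called between neighbouring ages before birth. Between E10.5 and E12.5, 11 of the 15 genes fell and none rose, beside 24.4% and 31.0% of all genes. The falls ran from -0.59 ± 0.09 for mt-Co1 to -1.63 ± 0.58 for mt-Atp6, a membrane subunit of the ATP synthase. The 4 others were mt-Rnr1, mt-Co2, mt-Nd4l and mt-Nd6. The change of mt-Nd6 was -0.19 ± 0.14 (edgeR adjusted p = 0.27), from 67.44 ± 3.38 to 59.27 ± 10.8 CPM. Without E10.5 replicate 2 the count of falls was 7, and without E12.5 replicate 1 it was 14. The sizes of some falls leaned on E10.5 replicate 2, among them those of mt-Atp6 and mt-Nd3. That library held 61278 unscaled counts of mt-Atp6 and its copy together, against 22493 and 26396 in replicates 1 and 3. mt-Atp6 itself took 10.6% of the sum there, against 7.06% and 7.21%. The sum for mt-Nd3 was 38956 there, against 8525 and 12460, and mt-Nd3 took 45.9% of it, against 27.8% and 19.6%. The levels of mt-Nd3 in replicates 1 and 3, given above, were not higher than its E12.5 mean. Erythroid markers moved at the same step, from a summed 6642 to 14814 CPM over the E10.5 libraries to 20031 to 23348 CPM over those of E12.5, with all 11 detected, and their part in the result was not tested.

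From E12.5 to E18.5 few genes passed the test, and mt-Co1 did so in 2 steps of 3. By edgeR none of the 15 changed between E12.5 and E14.5, beside 10.5% of all genes that rose and 7.80% that fell. At an unadjusted p under 0.05 there was 1 gene, mt-Co2, and DESeq2 called 1 fall. mt-Co1 rose by 0.40 ± 0.09 from E14.5 to E16.5, the 1 call of that step beside 14.1% of all genes rising, and by 0.41 ± 0.09 from E16.5 to E18.5. In that last step mt-Nd5, a large subunit at the far end of the membrane arm of complex I, rose as well (0.33 ± 0.11, edgeR adjusted p = 0.025), beside 13% of all genes rising. Erythroid markers moved in both steps, with a summed 4838 to 6783 CPM at E14.5, 18917 to 33561 at E16.5 and 2318 to 6605 at E18.5 (all 11 detected), and their part was not tested. The count of rises from E16.5 to E18.5 was 5 with DESeq2 and 1 to 5 when single libraries were left out.

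Around birth 8 genes rose and 1 fell. Between E18.5 and P1 the rises were those of both rRNAs, mt-Nd1, mt-Nd2, mt-Nd4, mt-Nd5, mt-Cytb and mt-Co1, beside 19.8% of all genes that rose and 19.0% that fell. The median log2 change of the 15 was 0.46, against -0.01 over all genes. mt-Co1 stood at 12701, 11928 and 13645 CPM in the E18.5 libraries and at 23768, 22182 and 25679 in those of P1. The groups were far apart and the change was 0.90 ± 0.09 (edgeR adjusted p = 1.6e-09), the highest of the 8. The others ran from 0.33 ± 0.11 (mt-Nd5) to 0.65 ± 0.23 (mt-Rnr2). For 5 genes all P1 libraries lay above all E18.5 libraries and for 1 gene, mt-Nd6, below, beside 25.2% and 25.6% of all genes. The number of rises was 2 without P1 replicate 3, 3 without E18.5 replicate 1 and 5 without E18.5 replicate 2. The 8 log2 changes stayed above 0 in all 30 fits with 1 library left out (from 0.21 for mt-Nd5 and mt-Cytb), and those of mt-Co1 and mt-Nd4 passed in all 30. The other 6 passed in 26 to 29 of the 30.

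mt-Nd6 was the 1 transcript that fell at birth. It encodes a membrane subunit of complex I and is read from the strand opposite to the other 12 mRNAs. It stood at 68.17, 86.37 and 85.65 CPM at E18.5 and at 42.45, 37.43 and 59.90 at P1, and then at 93.95, 119.2 and 101.2 at 1W. Every P1 library was below every library of E18.5 and of 1W, and also below every E10.5 library. That did not hold for E12.5, where the mean lay below P1 replicate 3. Per kilobase the means were 114.2 CPM at E12.5, 117.9 at E14.5, 124.8 at E16.5 and 89.77 at P1. The change was -0.78 ± 0.14 at birth (edgeR adjusted p = 7.5e-05) and 1.17 ± 0.14 in the following step (edgeR adjusted p = 3.1e-07). The fall passed the test in all 30 fits that left out 1 library, with log2 changes from -1.02 to -0.65. The ratio of mt-Nd6 to mt-Nd5, the gene it overlaps, was 0.108 ± 0.00967 at E18.5, 0.0495 ± 0.00601 at P1 and 0.0617 ± 0.00137 at 1W. All 3 P1 libraries carried Y transcripts without Xist, as did 1 of the E18.5 and 1 of the 1W libraries, and the part of this in the result was not tested. How completely the oligo-T beads bound the RNA of mt-Nd6 was not tested either.

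Between P1 and 8W all 15 genes rose, beside 31.8% of all genes that rose and 35.1% that fell, and no 8W library overlapped with any P1 library in any of the 15 (33.5% of all genes had all 8W libraries higher). The median log2 change was 2.47, against -0.10 over all genes. With library size alone all 15 still rose, with a median of 1.70 against -0.88 over all genes. The changes ran from 1.98 ± 0.20 for mt-Rnr1 to 3.75 ± 0.14 for mt-Nd4, that is from 3.93-fold to 13.5-fold.

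Among the complex I genes the rises after birth differed in size. mt-Nd4 went from 589.9, 516.5 and 704.0 CPM at P1 to 7560, 8564 and 8228 at 8W (edgeR adjusted p = 2.4e-21). mt-Nd2 went from 228.7, 201.1 and 296.9 to 2460, 2814 and 2530 CPM, a log2 change of 3.42 ± 0.17. mt-Nd1, which sits where the membrane arm meets the arm that binds NADH, changed by 2.30 ± 0.19, from 1304, 1096 and 1708 to 6822, 6731 and 6656 CPM. mt-Nd2 and mt-Nd4 thus rose 10.7-fold and 13.5-fold and mt-Nd1 4.92-fold. mt-Nd5 rose by 2.94 ± 0.12 and mt-Nd6 by 2.65 ± 0.15. mt-Nd3 rose by 2.28 ± 0.52 and mt-Nd4l by 3.5 ± 0.59, both with wide errors and near-identical nuclear copies. The lowest counts were those of mt-Nd4l, which stood at 2.51, 3.07 and 4.56 CPM at P1 and 36.5, 37.7 and 41.1 at 8W.

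The other complexes and the rRNAs rose as well. mt-Cytb went from 1267, 1136 and 1483 CPM at P1 to 9739, 11356 and 10327 at 8W, a log2 change of 3.02 ± 0.13 (edgeR adjusted p = 1.1e-19). mt-Co1 went from 23768, 22182 and 25679 CPM to 123726, 121474 and 120637, a change of 2.35 ± 0.09 (edgeR adjusted p = 2.5e-20). mt-Co2 and mt-Co3, the other mitochondrial subunits of cytochrome c oxidase, changed by 2.47 ± 0.39 and 2.25 ± 0.38. The 2 ATP synthase genes changed by 2.24 ± 0.39 (mt-Atp8) and 2.95 ± 0.60 (mt-Atp6). mt-Rnr1 went from 4152, 3163 and 5357 to 14778, 17867 and 17199 CPM and mt-Rnr2 from 24239, 20151 and 29316 to 122829, 132427 and 137316, with changes of 1.98 ± 0.20 and 2.41 ± 0.24. The rRNAs have no long poly(A) tail, and how completely the beads bound them was not tested.

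The step from 1W to 2W held the highest number of rises between neighbouring ages. In it 13 of the 15 genes rose, beside 15.5% of all genes, with changes from 1.04 ± 0.23 (mt-Rnr2) to 2.19 ± 0.55 (mt-Nd4l) and 2.00 ± 0.13 for mt-Nd4. The other 2 were mt-Atp6 (1.32 ± 0.57, edgeR adjusted p = 0.088) and mt-Nd3 (0.61 ± 0.50, edgeR adjusted p = 0.39). From P1 to 1W, 8 genes rose, beside 18.8% of all genes, with the highest change in mt-Nd6 (1.17 ± 0.14), and from 2W to 4W 6 rose, beside 15.8%. From 4W to 8W mt-Co1 was the only call (0.28 ± 0.09), beside 11.8% of all genes that rose. With only the 6 libraries of that step in the fit, 8 rose and 2 fell, and with library size alone none rose and 1 fell.

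The summed level of cardiomyocyte markers was higher in the same libraries. Over 10 of 10 genes detected, it was 95883 to 113010 CPM at P1, 134438 to 139033 at 1W, 177662 to 183916 at 2W and 217427 to 236761 at 8W. The sum mostly reflects the most abundant genes. Over all 30 libraries Myh6 ranged from 1695 to 84668 CPM, Tnnt2 from 657.8 to 5479, Actc1 from 3392 to 13643 and Nkx2-5 from 25.94 to 56.16. Fibroblast markers (7 of 7) stood at 5925 to 8091 CPM at P1, 10784 to 11261 at 1W and 2580 to 2870 at 8W. Macrophage markers (7 of 7) stood at 115.9 to 159.4 CPM at P1 and 305.7 to 339.4 at 8W. Skeletal muscle markers stood at 34.7 to 41.8 CPM at P1 (5 of 7 detected), 40.6 to 856.1 at 2W and 254.7 to 427.4 at 8W (6 of 7). In whole hearts more cells of a type and more RNA per cell cannot be told apart, and the part of these markers in the rises was not tested.

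**Figure D3:**
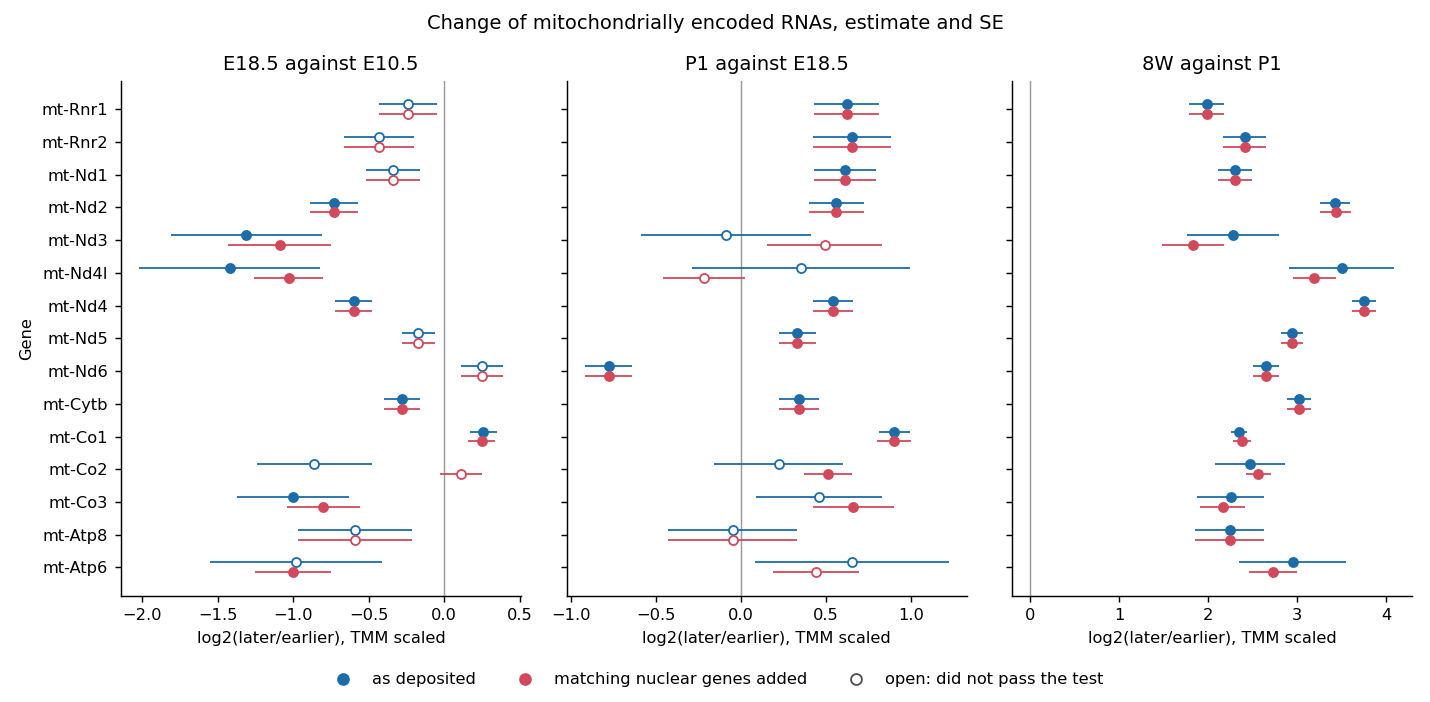
Log2 change (x axis, points, with SE bars) of the 15 genes (y axis) in 3 comparisons, as deposited (blue) and with the counts of matching nuclear genes added (red). Filled points passed the test; in E18.5 against E10.5 mt-Co2 lies at -0.86 as deposited and at 0.11 with its copy added, while in 8W against P1 all points lie above 1.8.

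The nuclear copies held most of the counts of several genes. Over all libraries mt-Co2 held 4.19% of the counts summed over itself and its copies, mt-Co3 10.2%, mt-Atp6 12.6%, mt-Nd3 29.7% and mt-Nd4l 36.5%. mt-Co1 held 96.3% and mt-Nd4 99.9%, with near-identical copies that align to only 31.3% and 63.6% of their lengths. Gm28437, the copy of mt-Co3, stood at a mean of 27190 CPM at 8W, where mt-Co3 itself stood at 2906. The copies rose as well, by 2.15 ± 0.24 (Gm28437), 2.56 ± 0.15 (Gm28661) and 2.70 ± 0.25 (Gm10925) in 8W against P1. Whether these counts came from nuclear or mitochondrial RNA cannot be told from the table.

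**Figure D4:**
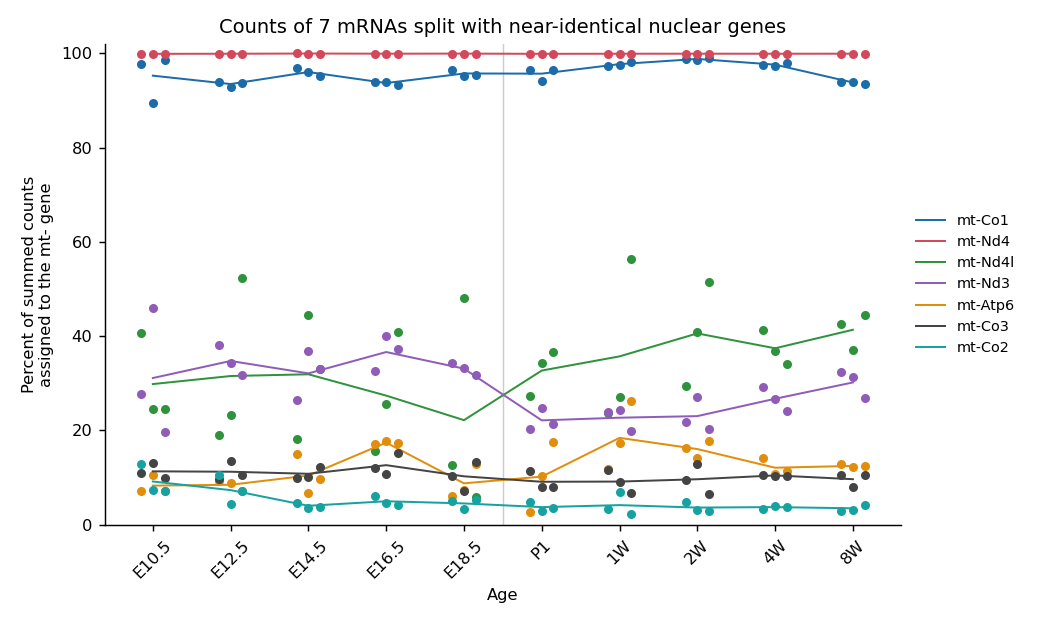
Percent of the counts summed over an mt- gene and its matching nuclear genes that were assigned to the mt- gene (y axis), by age (x axis). Points are libraries and lines join the means of 3; mt-Nd4 and mt-Co1 stay between 89.5% and 100%, and mt-Co2 between 2.29% and 12.99%.

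The division varied between libraries of the same age. At P1 mt-Atp6 held 2.81%, 10.3% and 17.5% of the sum in the 3 libraries, and its level was 19.25, 66.11 and 145.9 CPM. Adding the copies brought the replicates closer: the median within-age coefficient of variation went from 23.7% to 10.2% for mt-Co2, from 27.0% to 10.3% for mt-Atp6, from 18.6% to 8.15% for mt-Co3 and from 37% to 16.1% for mt-Nd4l. It was 5.97% for mt-Co1 and 10.4% for mt-Nd4 as deposited. For mt-Nd3 it went from 16.1% to 12.5%, and mt-Atp8, which has no such copy, stood at 16.5%. The 4 genes with the widest spread as deposited were mt-Nd4l, mt-Atp6, mt-Co2 and mt-Co3, each with most of its summed counts in a copy.

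With the copies added, some changes differed from those of the deposited values. mt-Co2 with its copies stood at 992.4, 1407 and 1041 CPM at E10.5 and at 1164, 1212 and 1348 at E18.5. The groups overlapped and the change was 0.11 ± 0.14 (edgeR adjusted p = 0.48), against -0.86 ± 0.38 as deposited (edgeR adjusted p = 0.052). At birth the summed mt-Co2 rose by 0.51 ± 0.14 and the summed mt-Co3 by 0.66 ± 0.24, which made 10 rises in place of 8. mt-Nd3 in 8W against P1 was 1.83 ± 0.35 in place of 2.28 ± 0.52. In E12.5 against E10.5 the number of falls was 13 in place of 11. In 8W against P1 all 15 rose with either set of counts.

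A last question was whether the genes changed in proportion to each other. For this the fit was repeated with the summed counts of the 13 mRNAs as the library size, which removes any scaling by other genes. As deposited, mt-Co1 made up 66.4% ± 5.56 of this pool at E10.5, 76.3% ± 2.11 at E18.5, 81.8% ± 1.26 at P1 and 75.4% ± 1.02 at 8W. Changes on this scale are thus largely changes against mt-Co1. On this scale 13 of the 15 genes changed across the ages, beside 99.6% of all genes, and the other 2 were mt-Co1 and mt-Atp6. As most of the pool, mt-Co1 had little room to change on it. With the geometric mean of the 13 mRNAs as the pool mt-Co1 passed (edgeR adjusted p = 5.3e-08), while mt-Atp6 and mt-Nd4l did not. With the nuclear copies added to the summed pool, mt-Co1 (edgeR adjusted p = 0.012) and mt-Atp6 (edgeR adjusted p = 5.3e-10) both passed.

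**Figure D5:**
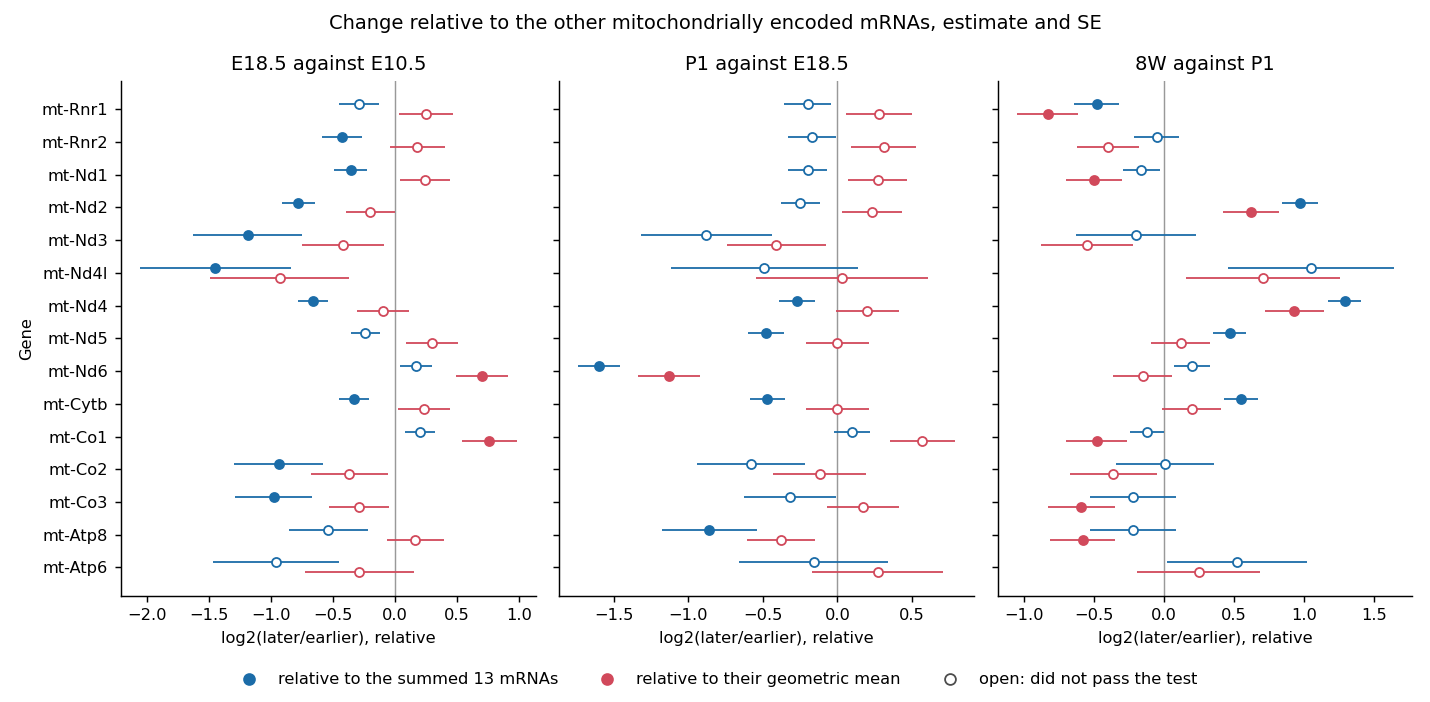
Log2 change (x axis, points, with SE bars) of the 15 genes (y axis) relative to the summed 13 mRNAs (blue) and relative to their geometric mean (red), in 3 comparisons. Filled points passed the test; the fall of mt-Nd6 at birth and the rises of mt-Nd2 and mt-Nd4 after it passed with both pools.

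Relative to the mRNA pool, 9 genes fell and none rose from E10.5 to E18.5, beside 30.4% and 27.5% of all genes. With the geometric mean of the 13 mRNAs as the pool, in which each gene weighs the same, none fell and 2 rose, mt-Co1 (0.76 ± 0.22) and mt-Nd6 (0.70 ± 0.21). At birth none rose relative to the pool, beside 1.88% of all genes, and 5 fell, beside 67.9%: mt-Nd6 (-1.60 ± 0.14, edgeR adjusted p = 7.7e-13), mt-Atp8, mt-Nd5, mt-Cytb and mt-Nd4. With the geometric pool 1 of these calls was left, that of mt-Nd6 (-1.13 ± 0.21). After birth mt-Nd4 (1.29 ± 0.12), mt-Nd2 (0.97 ± 0.13), mt-Cytb (0.55 ± 0.12) and mt-Nd5 (0.47 ± 0.12) rose relative to the pool in 8W against P1, beside 1.36% of all genes, and mt-Rnr1 fell (-0.48 ± 0.16), beside 92.7%. With the geometric pool mt-Nd4 (0.93 ± 0.21) and mt-Nd2 (0.62 ± 0.20) rose and 5 fell, mt-Rnr1 among them (-0.83 ± 0.22). In the single step from 1W to 2W the same 4 genes, mt-Nd4, mt-Nd2, mt-Cytb and mt-Nd5, rose relative to the mRNA pool and none of the 15 fell, beside 0.399% and 83.6% of all genes. With the geometric pool mt-Nd4 and mt-Nd2 rose in this step and mt-Rnr2 and mt-Nd3 fell. At birth the fall of mt-Nd6 passed with either pool. In 8W against P1 the rises of mt-Nd4 and mt-Nd2 and the fall of mt-Rnr1 did so, while the rises of mt-Cytb and mt-Nd5 passed only with the summed pool.

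The makeup of the mRNA pool, from the counts as deposited, restates these relative changes as percentages and adds no separate support. mt-Nd4 was 3.91% ± 0.167 of the 13-mRNA counts at E10.5, 2.06% ± 0.138 at P1 and 5.02% ± 0.305 at 8W. mt-Nd6 was 0.479% ± 0.0655 at E18.5, 0.158% ± 0.0259 at P1 and 0.181% ± 0.0136 at 8W, so its share at 8W was still below that before birth. mt-Cytb was lowest at P1 with 4.42% ± 0.205 and highest at 4W with 7.93% ± 0.0892. The ratio of the 2 rRNAs to the 13 mRNAs was 1.46 ± 0.359 at E10.5, 0.979 ± 0.107 at P1 and 0.912 ± 0.0574 at 8W. The E10.5 mean leaned on replicate 2, where the rRNAs held 4.23% and the mRNAs 2.254% of all counts. In replicate 1 these were 2.567% and 1.995%, and in replicate 3 2.263% and 1.844%. The ratio of mt-Rnr2 to mt-Rnr1, which lie next to each other with 1 tRNA between them, was 4.61 ± 0.139 at E12.5 and 7.90 ± 0.455 at 8W. It did not climb at every step between these ages. In E10.5 replicate 2, mt-Rnr2 held 3.795% of all counts out of 4.23% for both rRNAs, a ratio above the 8W mean.

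No tRNA was counted in any library. They are 59 to 75 bases long, and in the library with the lowest total the limit that a count of 0 allows (3 counts) is 0.130 CPM, which covers counting error only. The count of 0 describes these poly(A)-selected libraries and this counting, and the tRNAs themselves were not measurable here.

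The nuclear genes that serve the mitochondrial genome were set beside its transcripts. Of 40 genes of mitochondrial transcription and RNA processing, 29 rose and 3 fell from P1 to 8W, beside 31.8% and 35.1% of all genes, with a median of 0.63 against -0.10 over all genes. The share that rose, and the direction of the median, are relative to the TMM scaling: with library size alone 10 rose and 16 fell. Polrmt, the mitochondrial RNA polymerase, rose from 20.9 ± 1.40 to 45.8 ± 2.02 CPM (1.14 ± 0.13), and Tfb2m, which helps it to open promoters, from 22.6 ± 1.54 to 61.7 ± 6.0 (1.45 ± 0.09). Tfam, which packages the genome and starts transcription, rose by 0.53 ± 0.08 over the same interval, after falls of -0.60 ± 0.08 over gestation and -0.29 ± 0.08 at birth. Lrpprc, which stabilises the mRNAs of the mitochondrial genome, rose by 0.82 ± 0.07. Its partner Slirp did not pass the test (0.13 ± 0.16, edgeR adjusted p = 0.49), after a fall of -1.57 ± 0.16 over gestation. Mrm1, which methylates the large ribosomal RNA, rose by 1.55 ± 0.12, and Trit1, which modifies tRNAs, fell by 0.56 ± 0.14.

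Over gestation 15 genes of the same list rose and 18 fell, beside 32.9% and 30.4% of all genes. At birth 8 rose and 10 fell, close to the 19.8% and 19.0% of all genes, and with library size alone 3 rose. Ptcd1 and Ptcd2, of the family of pentatricopeptide repeat proteins that bind mitochondrial RNA, rose by 1.29 ± 0.10 and 1.03 ± 0.09 from E10.5 to E18.5. Of the 20 genes of mitochondrial DNA replication and nucleotide supply, 6 rose and 7 fell over gestation, close to the shares of all genes (32.9% and 30.4%). At birth 2 rose and 6 fell (19.8% and 19.0% of all genes), and from P1 to 8W 10 rose and 2 fell (31.8% and 35.1%). The falls after birth were those of Dna2, a nuclease and helicase (-1.18 ± 0.32), and Ssbp1, the single-strand binding protein (-0.56 ± 0.13). With library size alone 9 genes of this list fell from P1 to 8W. Of the 23 genes of mitochondrial aminoacyl-tRNA synthesis, which load the tRNAs, 12 rose and 5 fell over gestation, beside 32.9% and 30.4% of all genes. At birth 2 rose and 9 fell, beside 19.8% and 19.0%, and from P1 to 8W 17 rose and 1 fell, beside 31.8% and 35.1% (7 and 9 with library size alone). Cars2 had the highest rise of these (2.07 ± 0.11), and the fall was that of Ears2 (-1.1 ± 0.09).

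Many nuclear partners of the mitochondrial subunits rose already over gestation. Of 76 nuclear subunits of complexes I, III, IV and V tested, 44 rose and 4 fell from E10.5 to E18.5, beside 32.9% and 30.4% of all genes, with a median of 0.42. Of the 13 mitochondrial mRNAs 1 rose and 6 fell. Without E10.5 replicate 2 no nuclear subunit and 2 of the mitochondrial mRNAs fell, and with library size alone 13 nuclear subunits fell. From P1 to 8W 70 of the 76 rose and 3 fell, beside 31.8% and 35.1% of all genes, with a median of 1.06. All 13 mitochondrial mRNAs rose. With library size alone 42 of the 76 rose and 7 fell. Ndufb10 and Ndufa8 of complex I rose by 1.81 ± 0.10 and 1.61 ± 0.09 over gestation, and Ndufs7 by 1.87 ± 0.10 from P1 to 8W. Cox8b, a form of a complex IV subunit found in heart and skeletal muscle, rose by 4.84 ± 0.21 over gestation and 1.99 ± 0.15 after birth, and Cox7a1, another such form, by 1.17 ± 0.24 and 2.84 ± 0.24. Cox6a1, the form of its subunit found outside muscle, fell by 1.1 ± 0.17 after birth. All 4 subunits of complex II, which has no mitochondrially encoded subunit, rose in both comparisons. Sdha, its flavoprotein, changed by 1.63 ± 0.08 and 1.23 ± 0.08.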

How the data were processed

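The deposited table holds expected counts per gene for 30 libraries, made by the authors; per the labels' protocols the RNA was bound to oligo-T beads. Tools listed in the submitters' processing notes are fastp 0.18.0 and STAR 2.5.3a, with the builds GRCm38 and mm10. For the counting tool, the annotation release and strandedness, details were not given in the sources used here. Of the values, 6.94% were not whole (tolerance 1e-06), and all were rounded. Symbols from GENCODE M21 matched 48144 of 48820 genes by identifier, and genes without one held 0.225% of counts.

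Genes were tested with edgeR 4.0.16 (filterByExpr, TMM, quasi-likelihood F test with robust dispersions, Benjamini-Hochberg over 19280 genes), in 1 fit of 10 age means over 30 libraries with 20 residual degrees of freedom, across the ages and in 11 pairwise comparisons. Nuclear matches were found with BLAST+ 2.17.0. Alternatives were other scalings, filters and pools, DESeq2 1.42.0, only the 6 samples compared, a replicate block and each library left out. Adding the matching nuclear genes was chosen after seeing the data. On simulated data for 8W against P1, with 19080 of 19280 genes unchanged, 52.2% of 1.5-fold and 86.6% of 2-fold changes were recovered. For E18.5 against E10.5 these rates were 64.2% and 89.6%, and for P1 against E18.5 67.2% and 91%. The changed genes were drawn from those with higher counts, and far more genes changed in the data, so the rates need not hold there.

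Named genes were all mRNAs and rRNAs, the nuclear matches with the highest levels, Polrmt, Tfam, Tfb2m, Lrpprc and Slirp, and genes from the 2 largest rises and falls of each nuclear list. The genes and lists were chosen with earlier results of these data known.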

Additional observations from a re-analysis of the deposited data

How the results depend on the processing

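In 8W against P1, all 15 mitochondrial genes rose and none fell under each alternative and with each library left out. The number changed across the ages was likewise 15 throughout, and the fall of mt-Nd6 at birth passed in each of these fits. In E18.5 against E10.5 the 1 rise became 0 with library size alone, upper quartile factors or only the 6 samples, and 0 to 2 with 1 library left out. The 6 falls became 10 with library size alone and 3 with only the 6 samples, and ranged from 2 to 10 with 1 library left out. In P1 against E18.5 the 8 rises ranged from 2 to 8 with 1 library left out. In E12.5 against E10.5 the 11 falls became 7 with only the 6 samples (7 to 14 with 1 library left out). In E14.5 against E12.5 the 0 falls became 1 with DESeq2 (0 to 1 with 1 library left out). In E16.5 against E14.5 the 1 rise became 4 with only the 6 samples. In E18.5 against E16.5 the 2 rises became 4 with RLE size factors and 5 with DESeq2 (1 to 5 with 1 library left out). In 1W against P1 the 8 rises ranged from 5 to 9, with 5 without P1 replicate 2 or 1W replicate 2. In 8W against 4W the 1 rise became 0 with library size alone or upper quartile factors, 2 with the nuclear copies added and 8 with only the 6 samples (0 to 3 with 1 library left out). The 0 falls of that step became 1, 1 and 2 with library size alone, upper quartile factors and only the 6 samples (0 to 1 with 1 library left out). The cause of these changes was not tested.

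Relative to the mRNA total, E18.5 against E10.5 had 0 rises, or 2 with the geometric mean pool, 1 with DESeq2 and 1 with the copies added. Its 9 falls became 0 with the geometric pool, 3 with the pool of all 37 genes and 6 with the copies added (4 to 10 with 1 library left out). P1 against E18.5 had 5 falls, or 1 and 3 with these pools (3 to 7 with 1 left out). With the copies added there were again 5, with mt-Nd4l in place of mt-Nd4. 8W against P1 had 4 rises, or 2 with the geometric pool and 5 with the copies added. It had 1 fall, or 5 with the geometric pool and 2 with the copies added (0 to 1 with 1 left out, 0 without P1 replicate 3).

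With the geometric pool these relative changes turned sign in E18.5 against E10.5: mt-Rnr1 0.25, mt-Rnr2 0.18, mt-Nd1 0.24, mt-Atp8 0.16, mt-Nd5 0.30 and mt-Cytb 0.23. In P1 against E18.5 they were mt-Rnr1 0.28, mt-Rnr2 0.31, mt-Nd1 0.27, mt-Nd2 0.23, mt-Atp6 0.27, mt-Co3 0.17, mt-Nd4l 0.03, mt-Nd4 0.20 and mt-Cytb 0.00. In 8W against P1 they were mt-Co2 -0.36 and mt-Nd6 -0.15, and with the pool of all 37 mt-Rnr2 was 0.00. With the copies added, mt-Co2 turned to 0.11 (0.23 relative to the pool) in E18.5 against E10.5, and at birth mt-Nd3 turned to 0.49 and mt-Nd4l to -0.22. With 1 library left out, changes in E18.5 against E10.5 ranged from -0.64 to 0.04 (mt-Rnr2), -0.52 to 0.06 (mt-Nd1), -1.0 to 0.37 (mt-Atp8), -1.58 to 0.02 (mt-Atp6) and -1.76 to 0.40 (mt-Nd3). At birth they ranged from -0.17 to 0.06 (mt-Atp8), -0.22 to 1.25 (mt-Atp6), -0.17 to 0.03 (mt-Nd3) and -0.05 to 1.75 (mt-Nd4l). Relative to the pool the ranges were -0.90 to 0.16 (mt-Atp8) and -1.60 to 0.19 (mt-Nd3) over gestation, -0.87 to 0.33 (mt-Atp6) and -0.92 to 0.98 (mt-Nd4l) at birth, and -0.12 to 0.03 (mt-Rnr2) and -0.17 to 0.14 (mt-Co2) after it.

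The share of counts with the matching nuclear genes added was 4.71% at E18.5, after 3.89% at E16.5, 3.53% at E14.5 and 3.72% at E12.5, and 7.12% at P1, 9.04% at 1W, 16.8% at 2W, 19.1% at 4W and 22.1% at 8W. Without these nuclear genes added, the mt- counts as a percent of the counts of all other genes with a symbol were 8.86% at 1W, 18.0% at 2W, 20.5% at 4W and 23.5% at 8W.

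With library size alone, genes of mitochondrial transcription that rose numbered 3 at birth and 10 in 8W against P1, where 16 fell. For mitochondrial DNA replication 1 rose at birth and 9 fell in 8W against P1. For aminoacyl-tRNA synthesis 8 fell over gestation, and 7 rose and 9 fell in 8W against P1. For the nuclear subunits 13 fell over gestation, 7 rose and 15 fell at birth, and 42 rose and 7 fell in 8W against P1. With 1 library left out, the ranges at birth were 3 to 10 rises (transcription), 1 to 2 rises (replication), 8 to 19 rises and 1 to 15 falls (nuclear subunits). Over gestation they were 4 to 7 falls (replication) and 0 to 12 falls (nuclear subunits).

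Replicate numbers did not pair the samples: deviations of same-numbered libraries correlated by -0.102 to 0.114. With the replicate block, E18.5 against E10.5 had 1 rise and 5 falls, the comparison at birth 8 and 1, 8W against P1 15 and 0, 1W against P1 7 rises and E18.5 against E16.5 3. The lowest level, that of mt-Nd4l before birth (2.52 CPM at E18.5), limits its changes. With 3 libraries per age, 1 library can decide a call, and the counts carry no molecular identifiers.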
